A study of Mus musculus with 14 samples.

Results

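Activated fibroblast genes were followed in ventricles of mice with pressure overload that were given a virus for JP2NT, an N-terminal fragment of junctophilin-2. The set comprised 9 genes listed for the myofibroblast and matrifibrocyte states: Postn, Tnc, Cilp, Cthrc1, Fap, Ddr2, Sfrp2, Meox1 and Scx. They were chosen by name, with earlier results of these data known. All 9 were among the 24972 genes of the deposited table, and all 9 were among the 13212 genes tested, those that reached a value of 10 in 3 or more samples. Cthrc1 met this filter only through TAC+GFP, the group where it was high. The hearts came from male C57BL/6N mice operated on at 9 to 10 weeks of age, either by transverse aortic constriction (TAC), a narrowing of the aorta that loads the left ventricle, or by sham surgery. Echocardiography at 2 weeks picked 30 TAC mice with ejection fractions of 40 to 60% and 10 sham mice with normal function. An AAV2/9 virus then delivered green fluorescent protein (GFP, the control) or JP2NT by tail vein (1e12 viral genomes in 100 ul), and tissue was taken 8 weeks after surgery. Every mouse thus carried a virus, and no group went without one. The 4 groups were Sham+GFP (3 libraries), TAC+GFP (4), Sham+JP2NT (3) and TAC+JP2NT (4). The promoter of the transgene is not given in the sources used here, nor is whether each library is 1 mouse, so the p-values measure the spread between these libraries.

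A resting cardiac fibroblast keeps the collagen network of the heart. Under pressure or after injury, transforming growth factor beta (TGF-beta) and mechanical stretch turn it into an activated fibroblast or myofibroblast, which secretes matrix and matricellular proteins. Later, such cells can pass into a state named the matrifibrocyte, with genes of cartilage and tendon matrix. Periostin (Postn), tenascin C (Tnc), the cartilage intermediate layer protein (Cilp) and Cthrc1 are secreted products of these cells. Fap is a surface protease of activated fibroblasts, Ddr2 is a collagen receptor that fibroblasts also carry at rest, and Sfrp2 is a secreted modulator of Wnt signals. Meox1 and scleraxis (Scx) are transcription factors of the activated state and of matrix gene expression.

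Values were rescaled read counts, given here as normalized values. The libraries held about 8650188 to 14460609 reads, estimated from the value of 1 read. Replicates 1 and 2 of Sham+JP2NT were nearly as close as counting noise allows (ratio of observed to counting variance 1.2, against 1.72 to 7.02 in the other 17 pairs within groups) and were averaged and counted as 1 sample, so that 13 samples entered the fit and Sham+JP2NT had n = 2. A gene was called where limma gave a Benjamini-Hochberg adjusted p under 0.05 over all genes tested. Differences are on the log2(value + 1) scale. All 6 cardiomyocyte markers were abundant, as the tissue label says, and their summed value was 682758 to 721507 in the 6 sham libraries, 352537 to 424388 in TAC+GFP and 387337 to 549519 in TAC+JP2NT. The highest of these TAC values was that of TAC+JP2NT replicate 4, which was also the highest library for atrial markers (a summed value of 10642) and the lowest for macrophage markers (1391). Taken marker by marker, the median cardiomyocyte log2 difference was smaller than the sums imply. It was -0.29 in TAC+GFP against Sham+GFP (3 lower and 1 higher of 6) and -0.00083 between the TAC groups (1 higher). In whole ventricle, a change in the number of fibroblasts and a change in RNA per fibroblast cannot be told apart.

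The start regions of Postn and Cilp, the members with the highest levels per kilobase in TAC+GFP, are shown because both hold the same TATA element at nearly the same place. The sequences are the 250 bases before the RefSeq start (GRCm38.p6, 5′ to 3′), on the plus strand, at chr3:54360857-54361106 for the second Postn start and chr9:65264930-65265179 for Cilp, with the TATATAA in capitals.
Postn: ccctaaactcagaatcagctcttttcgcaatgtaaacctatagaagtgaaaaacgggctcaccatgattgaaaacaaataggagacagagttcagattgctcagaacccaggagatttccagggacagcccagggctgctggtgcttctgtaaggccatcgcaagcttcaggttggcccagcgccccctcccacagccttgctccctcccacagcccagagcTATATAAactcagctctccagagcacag
Cilp: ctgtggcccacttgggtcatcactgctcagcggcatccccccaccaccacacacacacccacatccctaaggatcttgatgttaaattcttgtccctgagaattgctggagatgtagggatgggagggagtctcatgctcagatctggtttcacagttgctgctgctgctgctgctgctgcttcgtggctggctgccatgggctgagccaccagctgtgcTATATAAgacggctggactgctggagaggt
In these windows TATATAA began 28 bases before the start of Postn and 30 bases before that of Cilp, and it began 29 bases before the second start of Tnc. The windows of the first Postn start, the first Tnc start and Sfrp2 held no TATATAA. In the Ddr2 window it began 216 bases before the start. Among 32851 such windows of RefSeq starts, 0.77% held TATATAA on the gene's strand within the last 50 bases. The element was picked after the sequences had been seen. RefSeq windows were matched for 5 of the 9 members (Postn, Tnc, Cilp, Ddr2 and Sfrp2), and Cthrc1, Fap, Meox1 and Scx had no entry. The AP-1 motif TGANTCA, present in 6.7% of all windows on either strand, and the TEAD motif GGAATG, present in 12.6%, were in no window of the 5. The SMAD motif CAGACA, present in 17.1% of windows, lay 71 bases before the second start of Tnc and 239 bases before that of Sfrp2. The E-box CANNTG, present in 66.2% of windows, occurred 3 times in the Cilp window above and in both Tnc windows.

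TAC under the control virus raised 7 of the 9 genes, and Cthrc1, Postn and Cilp, all secreted, rose most. They were followed by Sfrp2, Scx and Meox1, and Fap rose least. Ddr2 fell, and Tnc did not pass the test. The 7 higher members stood beside 23.3% of all genes tested that were higher and the 1 lower member beside 24.8% that were lower (48.1% called in all). Groups did not overlap for 8 of 9 members, against 53.1% of all genes tested. The median difference of the members was 1.95 on the log2 scale, and that of all genes tested was -0.01. Markers of some other cell types rose with the set, and those of others fell. Of 4 epicardial markers 3 rose in TAC+GFP, with summed values of 287 to 456 against 147 to 165 in Sham+GFP, and 1 was lower under JP2NT than under GFP after TAC (median -0.44, sums of 194 to 306). Of 3 tendon and valve markers tested 2 rose in TAC+GFP, with sums of 260 to 462 against 37.4 to 127. Fmod and Chad of that list are also in the matrifibrocyte list used below, so these lists overlap. Red cell markers rose as well (2 of 2 tested). The other way, 5 of 6 pericyte, 3 of 5 smooth muscle and 2 of 2 Schwann markers fell. Of the 6 cardiomyocyte and the 6 endothelial markers, 3 each fell and 1 each rose. The part of these cell types in the members' values was not tested.

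Postn encodes periostin, a matricellular protein that is the usual mark of activated fibroblasts (chr3:54361109-54391037, plus strand, mm10). Its normalized values were 497.8, 469.8 and 536.5 in the Sham+GFP libraries and 6052, 7014, 3523 and 3878 in the TAC+GFP libraries. In Sham+JP2NT they were 577.7, 548.9 and 531.9, and in TAC+JP2NT 2547, 2546, 3735 and 1152. Every TAC library lay above every sham library under both viruses, and TAC+JP2NT replicates 1, 2 and 4 lay below all 4 TAC+GFP libraries. Postn rose 9.78-fold in TAC+GFP against Sham+GFP, from 501.4 ± 33.5 (SD, n = 3) to 5117 ± 1688 (n = 4) (limma adjusted p = 1.63e-06). With JP2NT it rose 4.19-fold, to 2495 ± 1056 (n = 4) from 547.6 ± 22.2 (n = 2) (limma adjusted p = 0.000632). TAC+JP2NT was 2.13-fold lower than TAC+GFP, a log2 difference of -1.09 (SE 0.28, 95% interval -1.69 to -0.50, limma adjusted p = 0.0332). Without TAC+JP2NT replicate 4, the lowest library, the difference was -0.77 (limma adjusted p = 0.0433). The call was lost when any 1 of 5 other libraries was left out (TAC+GFP replicate 1 or 2, TAC+JP2NT replicate 1 or 2, or Sham+GFP replicate 2), with adjusted p of 0.0512 to 0.115.

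Cilp, a secreted matrix protein of cartilage and of the overloaded heart (chr9:65265180-65280605, plus strand), had values of 265.8, 275.3 and 241.2 in Sham+GFP and 2210, 2556, 1846 and 1445 in TAC+GFP. Under JP2NT the values were 156.0, 142.8 and 236.6 in sham and 1427, 1145, 1769 and 736.4 in TAC hearts. The TAC and sham libraries were far apart under both viruses, and TAC+JP2NT replicate 3 lay inside the TAC+GFP range. Cilp rose 7.54-fold under GFP and 6.39-fold under JP2NT (limma adjusted p = 8.56e-07 and 3.54e-05). Between the TAC groups the log2 difference was -0.71 (95% interval -1.20 to -0.21), which did not pass the test (limma adjusted p = 0.0826). It passed without TAC+GFP replicate 4 (-0.86, adjusted p = 0.0385) or TAC+JP2NT replicate 3 (-0.89, adjusted p = 0.0283).

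Cthrc1, a secreted collagen triple helix repeat protein of migrating and matrix-producing fibroblasts (chr15:39076932-39087121, plus strand), was close to absent in sham hearts. Sham+GFP replicates 1 and 3 had no read, which still allows 3 reads, a value of 3.0 and 2.53, and replicate 2 had a value of 4.74 from about 4 reads. The Sham+JP2NT values were 3.71, 4.55 and 1.33. TAC+GFP reached 39.5, 46.6, 48.4 and 31.1, while TAC+JP2NT reached 12.5, 6.35, 6.22 and 4.92. All 4 TAC+GFP libraries lay above all 4 TAC+JP2NT libraries, and the latter rested on about 5 to 13.9 reads each. The rise in TAC+GFP was 4.55 on the log2 scale (SE 0.57, limma adjusted p = 2.01e-05), a size that depends on the added 1, being 5.24 with 0.5 added and 2.88 with 5 added. Under JP2NT the difference between TAC and sham was 1.22 (95% interval -0.15 to 2.59) and did not pass the test (limma adjusted p = 0.163). Cthrc1 was 5.18-fold lower under JP2NT than under GFP after TAC, a log2 difference of -2.37 (SE 0.52, limma adjusted p = 0.0184), and it was the largest difference between the TAC groups among the 9 genes. The size of this difference also depends on the added 1, being -2.45 with 0.5 added and -1.91 with 5 added. Leaving out TAC+GFP replicate 1 or replicate 2 brought the limma adjusted p to 0.0511 and 0.0667, with log2 differences of -2.39 and -2.31. The call was also lost with TAC replicates 1 and 2 averaged (adjusted p = 0.0875) and with a spread per group (adjusted p = 0.0690).

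Tnc encodes tenascin C, a matricellular protein made at sites of remodelling (chr4:63959785-64047015, minus strand). Its values were 76.6, 55.9 and 44.9 in Sham+GFP, and 164.7, 162.7, 84.2 and 59.2 in TAC+GFP. They were 20.6, 24 and 37 in Sham+JP2NT, and 108.0, 98.8, 87.6 and 26.7 in TAC+JP2NT. The spread within each TAC group was wide, and in each 1 replicate (replicate 4) lay among the sham values. The log2 differences between TAC and sham were 0.89 under GFP (95% interval -0.06 to 1.84, limma adjusted p = 0.113) and 1.27 under JP2NT (0.20 to 2.35, adjusted p = 0.0671), and neither passed the test. Without TAC+JP2NT replicate 4 both did, at 0.88 (adjusted p = 0.0319) and 1.72 (adjusted p = 0.00297), and the first also did without TAC+GFP replicate 4 (1.17, adjusted p = 0.0419). Between the TAC groups the difference was -0.60 (95% interval -1.47 to 0.28, limma adjusted p = 0.428), and without TAC+JP2NT replicate 4 it was -0.14 (adjusted p = 0.839).

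**Figure D1:**
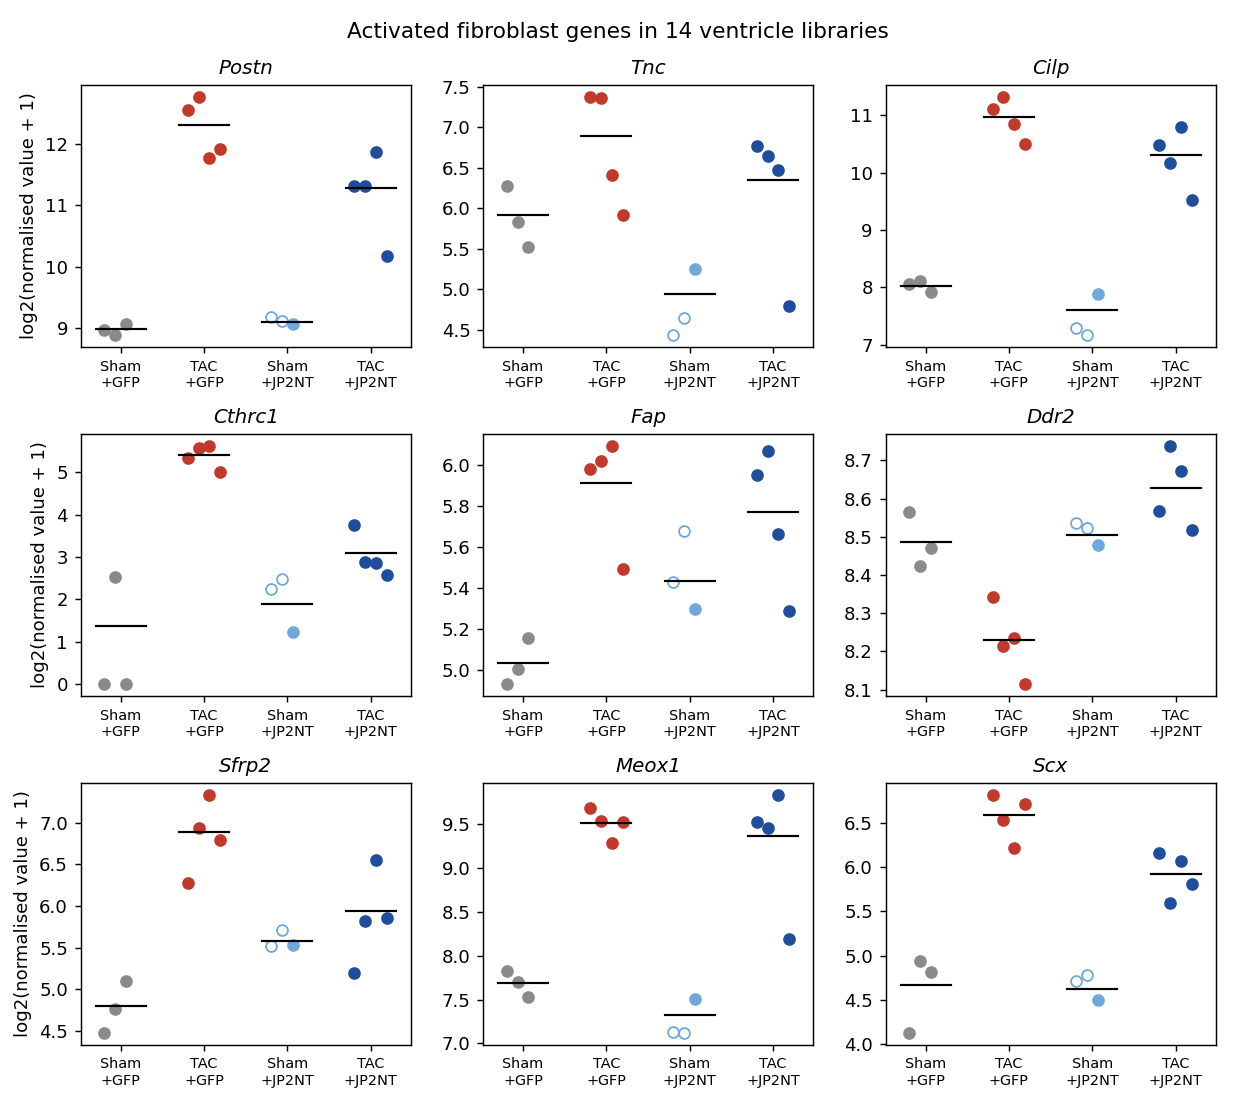
Normalized values of the 9 genes in each library, on a log2(value + 1) axis, 1 panel per gene, with a point per library. Bars show the group mean of the unlogged values, placed on the same axis. Open points are the Sham+JP2NT replicates averaged to 1 sample, and panels have their own scales that do not start at 0. Postn, Cilp, Cthrc1, Fap, Meox1, Scx and Sfrp2 are higher in every TAC+GFP library than in every Sham+GFP library, while Ddr2 is lower.

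Fap and Ddr2 are the members at the cell surface. Fap encodes fibroblast activation protein, a membrane serine protease (chr2:62500943-62574075, minus strand). Its values were 29.5, 31.2 and 34.7 in Sham+GFP, 62.2, 64.0, 67.4 and 44.1 in TAC+GFP, 42.2, 50.3 and 38.4 in Sham+JP2NT, and 61.0, 66.2, 49.7 and 38.2 in TAC+JP2NT. The GFP groups did not overlap, and the JP2NT groups did. Fap rose 1.82-fold in TAC+GFP (limma adjusted p = 0.00294), the smallest rise among the 7 called. With JP2NT the difference from sham was 0.31 (95% interval -0.18 to 0.81, adjusted p = 0.327), and between the TAC groups it was -0.15 (-0.56 to 0.25, adjusted p = 0.687).

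Ddr2, a receptor tyrosine kinase that binds fibrillar collagen (chr1:169972307-170110762, minus strand), went the other way. Its values were 377.6, 342.2 and 353.8 in Sham+GFP and 323.5, 296.0, 300.2 and 276.2 in TAC+GFP. They were 370.4, 366.8 and 355.7 in Sham+JP2NT and 378.7, 426.2, 407.1 and 365.3 in TAC+JP2NT. The 4 TAC+GFP libraries were the lowest of all 14, and no TAC+JP2NT library reached down to them. Ddr2 fell by 0.26 on the log2 scale in TAC+GFP against Sham+GFP (limma adjusted p = 0.0148), and this call was lost without Sham+GFP replicate 1 (-0.23, adjusted p = 0.0634). With JP2NT it did not differ detectably from sham (0.12, 95% interval -0.07 to 0.31, adjusted p = 0.338). TAC+JP2NT exceeded TAC+GFP 1.32-fold, a log2 difference of 0.40 (SE 0.07, 95% interval 0.24 to 0.56, limma adjusted p = 0.00789). This was the only member whose call between the TAC groups held in all 24 alternative analyses. An antisense gene over Ddr2, 3110045C21Rik, had deposited values of 5.02 to 15.8, far below those of Ddr2, and whether the counting used strand is not given in the sources used here. Pericyte markers moved the same way as Ddr2: of 6, 5 fell in TAC+GFP and 3 were higher under JP2NT than under GFP after TAC, with summed values of 9164 to 10994 in TAC+GFP and 11746 to 14606 in TAC+JP2NT, and their part in the Ddr2 result was not tested.

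Sfrp2 encodes a secreted frizzled-related protein that binds Wnt ligands (chr3:83766321-83774316, plus strand). Its values were 21.2, 26.0 and 33.2 in Sham+GFP, 76.5, 121.7, 161.3 and 109.7 in TAC+GFP, 45.0, 51.4 and 45.2 in Sham+JP2NT, and 35.7, 55.7, 93 and 57 in TAC+JP2NT. The GFP groups were separate, while the lowest TAC+JP2NT library lay below all 3 Sham+JP2NT libraries. Sfrp2 rose 4.18-fold in TAC+GFP (limma adjusted p = 4.57e-05) and did not pass the test under JP2NT (0.28, 95% interval -0.41 to 0.97, adjusted p = 0.538). TAC+JP2NT was 1.97-fold lower than TAC+GFP (log2 difference -0.98, SE 0.26, limma adjusted p = 0.0408). That call was held in 10 of 24 alternatives. It was lost without any 1 of Sham+GFP replicates 1 to 3, TAC+GFP replicates 2 to 4, Sham+JP2NT replicate 3 or TAC+JP2NT replicates 1, 2 and 4, with adjusted p of 0.0501 to 0.115.

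Of the transcription factors, Meox1, a homeobox factor induced in activated cardiac fibroblasts (chr11:101877510-101894374, minus strand), had values of 226.4, 207.5 and 183.1 in Sham+GFP and 824.4, 744.7, 624.7 and 736.2 in TAC+GFP. Under JP2NT they were 139.2, 138.2 and 181.1 in sham, and 735.5, 699.3, 914.7 and 290.4 in TAC hearts. Replicates 1 to 3 of TAC+JP2NT lay within or above the TAC+GFP range, and replicate 4 lay well below it. Meox1 rose 3.55-fold under GFP and 3.82-fold under JP2NT (limma adjusted p = 8.68e-05 and 0.000491). The log2 difference between the TAC groups was -0.26 (95% interval -0.80 to 0.28, adjusted p = 0.592), and without TAC+JP2NT replicate 4 it was 0.09 (adjusted p = 0.724).

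Scx encodes scleraxis, a basic helix-loop-helix factor of tendon and of matrix-producing fibroblasts (chr15:76457452-76459458, plus strand). Its values were 16.5, 29.7 and 27.2 in Sham+GFP, 112.2, 91.5, 73.7 and 104.2 in TAC+GFP, 25.1, 26.4 and 21.6 in Sham+JP2NT, and 70.7, 47.3, 66.5 and 54.9 in TAC+JP2NT. All TAC+JP2NT libraries lay above the sham libraries and below all TAC+GFP libraries. Scx rose 3.85-fold under GFP and 2.44-fold under JP2NT (limma adjusted p = 8.88e-06 and 0.00177). Between the TAC groups the difference was -0.66 (95% interval -1.10 to -0.23, limma adjusted p = 0.0682), which missed the threshold although the groups did not overlap. It passed without Sham+GFP replicate 1 (adjusted p = 0.0463) or TAC+GFP replicate 3 (-0.78, adjusted p = 0.0416). The gene lies inside Bop1 on the opposite strand, so its reads could hold Bop1 reads if strand was ignored. Bop1 itself was not called in either comparison, with differences of 0.18 for TAC+GFP against Sham+GFP (adjusted p = 0.0995) and -0.14 between the TAC groups (adjusted p = 0.337).

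Under JP2NT, TAC raised 4 of the 9 genes (Postn, Cilp, Meox1 and Scx) and lowered none. Over all genes tested, 16.1% were higher and 15.8% lower in TAC+JP2NT against Sham+JP2NT (31.9% called in all). Groups did not overlap for 5 of 9 members, against 49.6% of all genes tested. The members' median was 1.27, against 0.00 for all genes tested. The 2 comparisons of TAC with sham share no library, but a member called in one and not in the other is not thereby shown to differ between them. The interaction of surgery and virus, which tests that difference, called none of the 9 (0.0757% of all genes called, 0.0378% higher and 0.0378% lower, 10 genes in all, with 1505 at an unadjusted p under 0.05). The largest interactions among the members were those of Cthrc1 (-3.32, limma adjusted p = 0.157), Sfrp2 (-1.78, adjusted p = 0.145) and Postn (-1.22, adjusted p = 0.323). Their unadjusted p were 0.00154, 0.000916 and 0.0176.

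**Figure D2:**
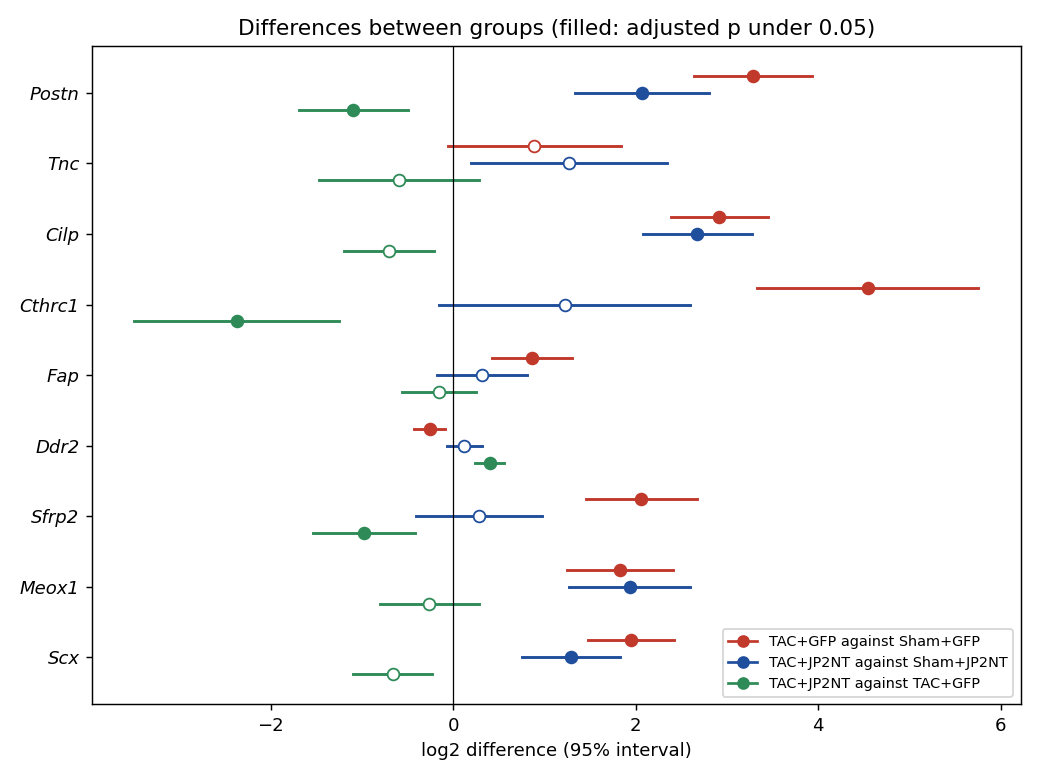
Log2 differences of the 9 genes for TAC against sham under GFP (red) and JP2NT (blue) and for TAC+JP2NT against TAC+GFP (green), with lines for the 95% interval and filled points for genes called at an adjusted p under 0.05. In TAC+JP2NT against TAC+GFP the estimates of all members but Ddr2 lie below 0.

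The comparison of the TAC groups asks what JP2NT did to genes already altered by overload. Of the 9 members, Postn, Cthrc1 and Sfrp2 were lower and Ddr2 was higher under JP2NT than under GFP after TAC, while over all genes tested 3.4% were lower and 2.75% higher (6.15% called in all). On values as deposited, without joint rescaling, 226 genes were higher and 1191 lower in place of 363 and 449, so the balance of directions rests on the scaling. Of the members, 5 were then lower and 1 higher, since Cilp (-0.79, adjusted p = 0.0417) and Scx (-0.74, adjusted p = 0.0338) passed as well. The members' median difference was -0.66, and that of all genes tested was 0.00. The groups did not overlap for Cthrc1, Scx and Ddr2, that is for 3 of 9 members, where 10.7% of all genes tested had separate groups. Exact two-sided permutation tests of 4 against 4 samples gave p = 0.0286, the smallest possible, for Cthrc1, Scx and Ddr2, and p = 0.0571 for Postn, Cilp and Sfrp2. For Tnc, Fap and Meox1 the exact permutation p were 0.4, 0.543 and 0.714.

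In sham hearts JP2NT moved none of the 9 genes past the test. None of the 13212 genes tested was called (0%, with 581 genes at an unadjusted p under 0.05). This comparison had n = 2 for Sham+JP2NT and n = 3 for Sham+GFP. The members' median difference between Sham+JP2NT and Sham+GFP was 0.02. Groups did not overlap for 5 of 9 members, against 30.2% of all genes tested. Sfrp2 had the smallest unadjusted p of the 9, 0.0329, with a difference of 0.80 (95% interval 0.07 to 1.53, limma adjusted p = 0.998). Tnc differed by -0.98 (-2.12 to 0.15) and Cthrc1 by 0.95 (-0.50 to 2.40), neither past the test. No atrial, tendon or valve marker passed the test there either, but their sums did not overlap, at 3703 to 6056 in Sham+JP2NT against 467 to 3349 for atrial markers and 147 to 237 against 37.4 to 127 for tendon and valve markers, and their part in the Sfrp2 difference was not tested.

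Replicate 4 of TAC+JP2NT stood apart from the others of its group. Averaged over the 9 genes, the log2 value against the mean of Sham+GFP was 1.74 to 2.22 in TAC+GFP. It was 1.37 to 1.61 in TAC+JP2NT replicates 1 to 3 and 0.71 in replicate 4, and -0.12 to 0.21 in the sham libraries. Replicate 4 was the lowest of its group for 7 of the 9 genes, the exceptions being Sfrp2 and Scx. Without it, Postn and Cthrc1 were still lower and Ddr2 still higher in TAC+JP2NT, with log2 differences of -0.77, -2.23 and 0.43 (limma adjusted p = 0.0433, 0.0388 and 0.00879), and Sfrp2 was no longer called. This library also had the most cardiomyocyte and atrial marker RNA of the TAC libraries, as given above, and the part of these in the members' values was not tested.

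**Figure D3:**
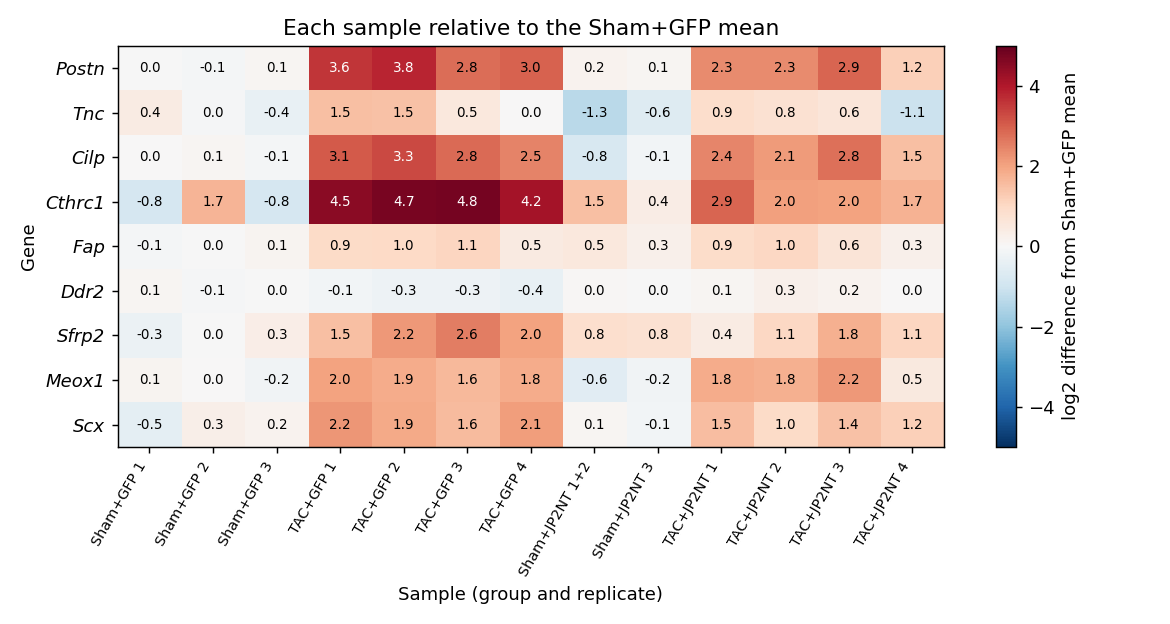
Heat map of the 9 genes in the 13 samples, as log2 value minus the mean of Sham+GFP, from blue (lower) to red (higher). Replicate 4 of TAC+JP2NT is paler than the other TAC samples for Postn, Cilp, Fap and Meox1, and Ddr2 stays close to 0 throughout.

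The levels of the 9 genes were ordered per kilobase of exon. In Sham+GFP, Meox1 was the highest at 92.3 per kb, above Cilp (61.3) and Postn (57.6), which overlapped. Ddr2 followed at 38.6, then Sfrp2 (12.4), Scx (12.2) and Tnc (7.61), whose neighbours in the order overlapped, then Fap (5.62) and Cthrc1 (0.992). In TAC+GFP, Postn moved to the top at 588 per kb, with Cilp at 474 and Meox1 at 329, each overlapping the next. Sfrp2 (54.5), Scx (47.5), Ddr2 (32.3), Cthrc1 (26.0), Tnc (15.1) and Fap (10.5) came below. In TAC+JP2NT the leading genes were level within their spread, at 299 per kb for Cilp, 296 for Meox1 and 287 for Postn, and Ddr2 (42.6) stood above Scx (29.8) and Sfrp2 (28). Thus Ddr2, ranked the fourth in sham hearts and in TAC+JP2NT, was the sixth in TAC+GFP.

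The wider programme of the fibroblast was read from lists chosen with earlier results of these data known, and no list was tested as a set. The counts of every list below stand beside the shares of all genes tested. These were 23.3% higher and 24.8% lower in TAC+GFP against Sham+GFP, and 2.75% higher and 3.4% lower in TAC+JP2NT against TAC+GFP. Of 19 fibrillar matrix and cross-linking genes tested, 18 rose in TAC+GFP and 9 were lower under JP2NT than under GFP after TAC, none higher, with medians of 1.00 and -0.58. Lox, the lysyl oxidase that cross-links collagen, rose by 3.45 and was lower by a log2 difference of -2.00 between the TAC groups (limma adjusted p = 0.00422). Timp1, an inhibitor of matrix proteases, differed by 2.77 and -1.73, and Spp1, which encodes osteopontin, by 3.34 and -1.59 in the same comparisons. The collagens were at the margin between the TAC groups. Col12a1 differed by 3.18 and -1.10 (adjusted p = 0.0387), and the latter call was lost in 13 of 24 alternatives (adjusted p up to 0.209), among them leaving out any Sham+GFP library, TAC+GFP replicate 1 or 2, Sham+JP2NT replicate 3 or TAC+JP2NT replicate 1, 2 or 4. The main fibrillar collagens were as close to the threshold, with Col3a1 at -0.70 (adjusted p = 0.0489) and Col1a1 at -0.62 (adjusted p = 0.0655) between the TAC groups. The Col3a1 call was lost in 15 alternatives and that of Spp1 in 5, among these leaving out TAC+GFP replicate 1 or 2 or TAC+JP2NT replicate 2, while Lox kept its call in all 24 and Timp1 in all but 1. Over the 24 alternatives, the number of matrix genes called between the TAC groups ranged from 2 to 13.

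Of the 14 matrix receptors tested, 10 rose in TAC+GFP and 6 were lower under JP2NT than under GFP after TAC (2 to 7 over the alternatives), with medians of 0.72 and -0.19. The hyaluronan receptor Cd44 differed by 1.59 and -0.73 (limma adjusted p = 0.00673 for the latter), the integrin subunits Itgb3 by 1.38 and -0.76 (just past the threshold), Itgb5 by 0.72 and -0.49 (0.00624) and Itga11 by 1.00 and -0.54 (0.0478). Between the TAC groups the calls of Itgb3 and Itga11 were lost in 19 and 16 of 24 alternatives, 13 and 10 of them single libraries left out, while Cd44 lost none and Itgb5 lost 1. The collagen receptor Ddr2 had the opposite signs. Of the 16 TGF-beta pathway genes tested, 11 rose and 3 fell in TAC+GFP, and 3 were lower under JP2NT than under GFP after TAC (1 to 5 called over the alternatives). These 3 were Ctgf, a matricellular target of the pathway (3.75 and -1.47, adjusted p = 0.00114 for the latter), Ltbp2, a latent TGF-beta binding protein relative (4.32 and -1.41, 0.00734), and the ligand gene Tgfb2 (1.79 and -0.65, 0.0276). The Tgfb2 call was lost in 8 of 24 alternatives (adjusted p up to 0.151), among them leaving out TAC+GFP replicate 1 or 2 or TAC+JP2NT replicate 1, 2 or 4, while Ctgf lost none and Ltbp2 lost 1.

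Of 10 matrifibrocyte genes tested, 7 rose and 1 fell in TAC+GFP, with a median of 1.46, and 2 were lower and 1 higher under JP2NT than under GFP after TAC, with a median of -0.16. Comp, a cartilage oligomeric matrix protein, differed by 3.57 and -1.60 (limma adjusted p = 0.0091 for the latter), and the thrombospondin Thbs4 by 3.70 and -1.11 (0.0143). Ogn, which encodes the proteoglycan osteoglycin, fell by 0.37 in TAC+GFP and was higher by 0.34 in TAC+JP2NT (0.0215), the same signs as Ddr2. Between the TAC groups the calls of Thbs4 and Ogn were lost in 4 and 3 alternatives, among them leaving out TAC+GFP replicate 1 for both, TAC+GFP replicate 2 for Thbs4 and TAC+JP2NT replicate 2 for Ogn. In Sham+JP2NT against Sham+GFP the median of the matrifibrocyte list was 0.81, and that of all genes tested was -0.01. No gene of the list was called there, and the part of this sham difference in the other comparisons was not tested. Of 9 contractile myofibroblast genes tested, none rose and 3 fell in TAC+GFP, beside 23.3% and 24.8% of all genes tested. None was called between the TAC groups, where 6.15% of all genes tested were called. Acta2, the smooth muscle actin that also marks vessel walls, fell by 1.03 in TAC+GFP (adjusted p = 3.01e-06) and differed by -0.14 between the TAC groups (0.428). Smooth muscle markers fell with it, with summed values of 4358 to 4611 in Sham+GFP and 2670 to 3172 in TAC+GFP, and 3 of the 5 in this list are also in the contractile list, so the part of vessel cells was not tested.

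Of 14 genes of fibroblast identity tested, 5 rose and 3 fell in TAC+GFP, with a median of 0.15, beside 23.3% and 24.8% of all genes tested, and 1 was higher and 2 were lower under JP2NT than under GFP after TAC, with a median of 0.13. Pdgfra, the receptor that marks cardiac fibroblasts, had a mean of 456.7 ± 3.10 (SD, n = 3) in Sham+GFP and 488.6 ± 83.8 (n = 4) in TAC+GFP. Under JP2NT the mean was 460.6 ± 21.8 (n = 2) in sham and 525.8 ± 84.8 (n = 4) in TAC hearts. It was not called between TAC+GFP and Sham+GFP (0.08, limma adjusted p = 0.636) or between the TAC groups (0.11, adjusted p = 0.643), and the sign of the latter changed when 1 of 2 libraries was left out. The fibroblast factor Tcf21 differed by 0.22 and -0.10 in these comparisons (adjusted p = 0.275 and 0.759). Among the called genes, Pi16 and Mfap5 rose in TAC+GFP (1.38 and 1.97) and were lower in TAC+JP2NT (-0.49 and -0.74, adjusted p = 0.0193 and 0.0205), while the transporter Abca8a was higher (0.62, 0.00153). The calls of Pi16 and Mfap5 between the TAC groups were lost in 4 alternatives each, among them without TAC+GFP replicate 1 or 2 (adjusted p of 0.0501 to 0.0875 and 0.0523 to 0.0993 over the 4), and the number of identity genes called ranged from 1 to 4.

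**Figure D4:**
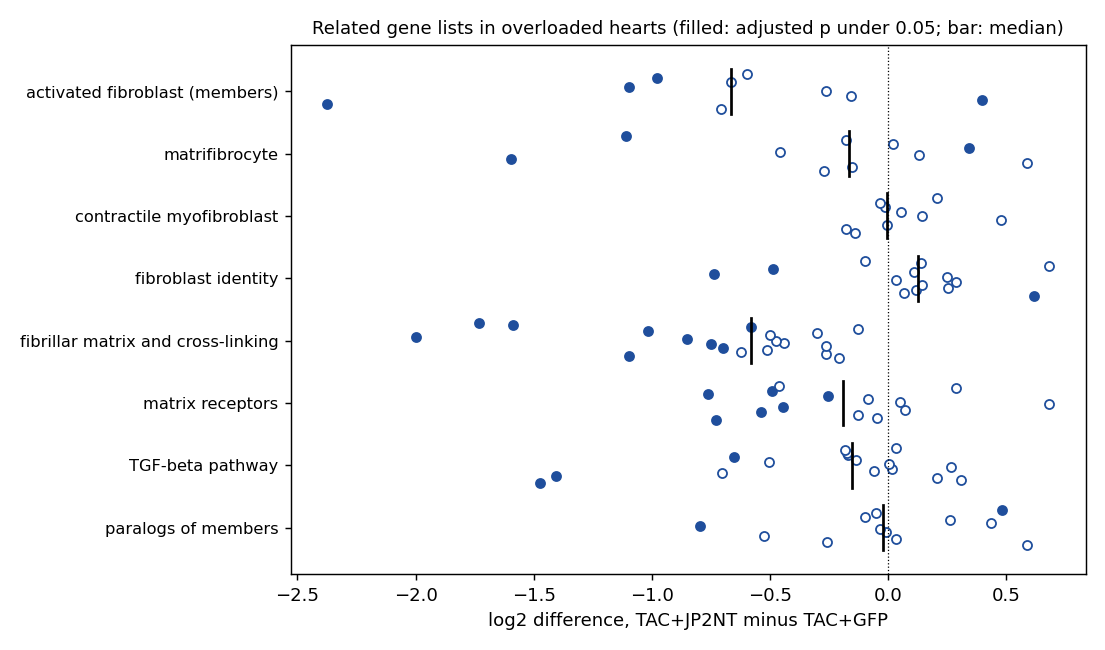
Log2 differences of single genes in each list for TAC+JP2NT minus TAC+GFP, with a point per gene, filled where the adjusted p was under 0.05, and a bar at the median of the list. The median of the 9 activated fibroblast genes is -0.66 and that of the matrix genes -0.58, while that of the fibroblast identity genes is 0.13.

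Of 12 paralogs of the members tested, 3 rose and 3 fell in TAC+GFP, shares near those of all genes (23.3% and 24.8%), and 1 was higher and 1 lower under JP2NT than under GFP after TAC. Sfrp1, a relative of Sfrp2, rose by 1.48 and was lower by a log2 difference of -0.79 between the TAC groups (limma adjusted p = 0.0143), a call lost in 3 alternatives, among them without TAC+GFP replicate 2. Tnxb, a tenascin like Tnc, fell by 0.71 in TAC+GFP and was higher by 0.48 in TAC+JP2NT (0.00707). Ddr1, the relative of Ddr2, rose by 0.30 in TAC+GFP and differed by -0.26 between the TAC groups (adjusted p = 0.0833), signs opposite to those of Ddr2. Tgfbi, a relative of Postn, was not called in either (0.46 and -0.05, adjusted p = 0.0548 and 0.906), nor were Cilp2 (-0.03 and 0.59) and Meox2 (-0.36 and -0.01).

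The genes whose log2 values were most like those of Postn over the 13 samples, by Pearson correlation, were Carhsp1 (r = 0.994), Serpinf1 (0.989), Strn (0.989), Ltbp2 (0.988) and Pi16 (0.988). All 5 rose in TAC+GFP, by 1.35, 1.43, 1.63, 4.32 and 1.38. The estimates of all 5 were below 0 in TAC+JP2NT against TAC+GFP, and all were called but Serpinf1 (-0.45, limma adjusted p = 0.0821). The genes most like Ddr2 were Cmpk2 (r = 0.887), Tnfrsf21 (0.881), Kctd7 (0.879), Adgre5 (0.868) and Zfp420 (0.860), none of which is a matrix gene. Their differences between the TAC groups were 0.64, 0.68, 0.75, 0.38 and 0.75, all called by limma, with adjusted p of 0.00438 to 0.0216. Within the 8 TAC samples alone, r was 0.936 to 0.980 for the genes like Postn and 0.888 to 0.976 for those like Ddr2. The samples of a group share its treatment, so these values are a description. The genes were picked by correlation over the same samples, so differences like those of Postn and Ddr2 follow from the choice. Their calls are not a separate result.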

How the data were processed

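Polyadenylated ventricular RNA was sequenced as stranded paired-end libraries per the labels' protocols. The submitters' processing notes name FastQC 1.0.0, STAR 2.6.1a, Salmon and build mm10. The annotation was not given in the sources used here, nor were the scaling software and counting strand. What the authors deposited is a signal, made of counts divided by scale factors, separately within the 7 GFP and the 7 JP2NT libraries, as the values themselves show. Only 1.11% to 2.86% of values above 0 lay within 0.001 of a whole number in units of 1 read, so no count model was run and limma replaced the quasi-likelihood test planned for counts.

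Values were rescaled jointly by unweighted trimmed means of M-values (30% of ratios and 5% of levels trimmed), and log2(value + 1) was taken. Genes with at least 10 in at least 3 samples were fitted with limma-trend (limma 3.58.1, R 4.3.3), 4 group means and 1 spread (9 residual, 5.71 prior degrees of freedom). All tests were two-sided, and p-values were Benjamini-Hochberg adjusted within a comparison. The 5 comparisons set TAC beside sham within each virus, JP2NT beside GFP within each surgery, and tested the interaction. Sham+JP2NT replicates 1 and 2 were averaged. Of the listed names, 26 had been turned into dates. The limit that 0 reads allow covers counting error only. Positions are from GENCODE (mm10), and sequences are from RefSeq (GRCm38.p6). The script was tested on simulated data.

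The members and lists were chosen with earlier results of these data known. Named beside the 9 members were up to 4 genes of each list called between the TAC groups with the largest differences, Acta2, Pdgfra, Tcf21, Col1a1 and Col3a1, paralogs, and the 5 genes most correlated with Postn and with Ddr2. The 24 alternatives covered scaling, pseudocount, filter, separate libraries, averaging, spread, the groups fitted, a replicate block and leaving out each library.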

Additional observations from a re-analysis of the deposited data

Results flagged for a closer look

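Ddr2 values in the 2 TAC groups lay on opposite sides of their sham means. All 4 TAC+GFP libraries lay below the Sham+GFP mean, and all 4 TAC+JP2NT libraries lay above the Sham+JP2NT mean. The interaction of surgery and virus was 0.38 on the log2 scale (95% interval 0.12 to 0.64) and did not pass the test over all genes (limma adjusted p = 0.241, unadjusted p = 0.0069). Over the alternatives its adjusted p ranged from 0.117 to 0.587. In the 18 sets of 4 libraries checked (9 genes in each TAC group), no single library stood apart by Dixon's criterion at the 95% level on unlogged values. On the log2 scale, TAC+JP2NT replicate 4 did stand apart for Tnc. It lay at -1.09 against the Sham+GFP mean, beside 0.89, 0.76 and 0.59 in replicates 1, 2 and 3.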

How the results depend on the processing

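Over 1071 values of members under the alternatives, 1013 kept both direction and side of the threshold. The limits rest mainly on the TAC groups: with 4 called members between them (1 higher, 3 lower), 6 were called on values as deposited (1 higher, 5 lower), 1 with TAC replicates 1 and 2 averaged, 2 with a spread per group, 2 in a fit of the compared groups only, and 1 to 5 with single libraries left out. Ddr2 was called in 24 of 24, Cthrc1 in 20, Postn in 17 and Sfrp2 in 10. Cilp and Scx became called in 4 and 3. The interaction called 0 members, but 2 with 14 libraries separate, 1 with a spread per group and 0 to 1 with single libraries left out. With the replicate block (and 14 libraries) it called 1, Sfrp2 (adjusted p = 0.0169). Numbers shared across groups did not pair samples, with correlations of -0.17 to 0.07. Leaving out single libraries gave 7 to 9 called members in TAC+GFP against Sham+GFP, 4 to 5 in TAC+JP2NT against Sham+JP2NT and 0 in sham.

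Of all genes, 812 were called between the TAC groups, against 1417 on values as deposited, 158 with averaging, 412 with a spread per group, 181 with compared groups only and 270 to 1077 with libraries left out. In TAC+JP2NT against Sham+JP2NT, 4221 became 1894 without Sham+JP2NT replicate 3, which leaves that group 1 sample, assumed to vary like the other groups. In sham, 0 became 2 with compared groups only and up to 1 with libraries left out. The interaction's 10 became 6 without a filter, 127 with 14 libraries separate, 4 with averaging, 76 with a spread per group, 77 with the replicate block and 0 to 50 with libraries left out; the compared groups alone give it no value.

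Signs changed only for differences that were not called: Meox1 between TAC groups (-0.46 to 0.089 with libraries left out, positive without TAC+JP2NT replicate 4), Scx in sham (0.0057 by median of ratios, 0.033 with 14 libraries or the block, -0.25 to 0.16 with libraries left out), Ddr2 in sham (-0.054 as deposited, -0.0036 to 0.062), the interactions of Meox1 (-0.099 without TAC+JP2NT replicate 3, to 0.45) and Cilp (-0.43 to 0.077, positive without Sham+JP2NT replicate 3), and Pdgfra between TAC groups (-0.013 without TAC+GFP replicate 4 and -0.0005 without TAC+JP2NT replicate 3, to 0.18). The causes were not tested. Depth limits Cthrc1 most, with 0 to 51.7 reads per library.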
